A study of Mus musculus with 24 samples.

Results

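Elastic fiber assembly genes were followed in the lungs and retinas of newborn mice raised in room air or in hyperoxia. The group held 10 genes, which have a known part in building elastic fibers: Eln, Mfap4, Fbn1, Fbn2, Fbln5, Ltbp4, Emilin1, Lox, Loxl1 and Loxl2. They were picked out of the tables by symbol, with no threshold on a measured value, from a list drawn up with earlier results of these data known, and all 10 were found among the 36887 genes listed in either tissue. RNA-seq of whole tissue was carried out on 12 lungs and 12 retinas, with 3 mice in each of 4 groups per tissue: wild type in room air (WT-RA), wild type in hyperoxia (WT-O2), GSDMD knockout in room air (KO-RA) and GSDMD knockout in hyperoxia (KO-O2). The comparisons addressed whether hyperoxia moved these genes in the injured newborn lung and retina, and whether the loss of GSDMD, the pore-forming protein of pyroptosis, altered that movement.

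The mice were C57/B6 littermates of both genotypes from heterozygote matings. The knockout was global and carried a 38-base CRISPR/Cas9 deletion in exon 5 of Gsdmd. Lung groups breathed 85% oxygen or 21% oxygen (room air) from postnatal day 1 to day 14 and the lungs were taken on day 15. Retina groups breathed 75% oxygen or room air from postnatal day 7 to day 12, returned to room air and gave retinas on day 18. Lung hyperoxia was therefore measured close to the end of exposure, and retinal hyperoxia after a period of recovery.

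Elastic fibers give the alveolar wall, airways and vessels their recoil. Cells secrete tropoelastin, the product of Eln, onto a scaffold of fibrillin microfibrils (Fbn1, Fbn2), with fibulin-5 (Fbln5) and the latent TGF-beta binding protein Ltbp4 guiding its deposition and Emilin1 and the microfibril-associated Mfap4 lying along the fiber. The copper enzymes of the lysyl oxidase family (Lox, Loxl1, Loxl2) oxidise lysine side chains and so start the cross-links that make elastin and collagen insoluble. In the lung most elastin is laid down during alveolar septation, by myofibroblasts and smooth muscle cells. In the retina elastic material is sparse and lies mainly in vessel walls and in Bruch's membrane beneath the pigment epithelium.

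A few short coding stretches are shown because they carry the features through which these products meet their enzymes and cells. All were read from the GENCODE M21 transcripts on GRCm38, run 5′ to 3′ along the coding strand and lie in coding exons. The Eln stretch covers coding bases 1006 to 1125 of the longest coding transcript, in exons 17 to 19 of 37, at chr5:134718160-134719184 on the minus strand, and its capitals mark 3 AAG codons for lysine, each preceded by GCN codons for alanine. Pairs of AAA or AAG codons parted by 2 or 3 GCN codons occurred 12 times in the 2580 coding bases of Eln, and 38 of its 860 codons were AAA or AAG. The Mfap4 stretch covers coding bases 55 to 117 in exons 2 to 3 of 5, at chr11:61485769-61486063 on the plus strand. The Fbln5 stretch covers coding bases 172 to 234 in exon 4 of 11, at chr12:101809900-101809962 on the minus strand. In both, the capitals mark the codons for the integrin-binding triplet arginine-glycine-aspartate, which occurred 1 time in each coding sequence.
Eln: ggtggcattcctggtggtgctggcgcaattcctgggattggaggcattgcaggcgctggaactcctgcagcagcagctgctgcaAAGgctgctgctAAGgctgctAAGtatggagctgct
Mfap4: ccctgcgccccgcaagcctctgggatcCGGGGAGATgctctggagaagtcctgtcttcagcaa
Fbln5: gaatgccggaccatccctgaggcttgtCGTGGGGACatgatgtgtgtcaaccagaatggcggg

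Library totals ran from 28763661 to 29604254 estimated counts in the lung and from 24863257 to 29093035 in the retina. Gsdmd, the targeted gene, lay at 40.6 to 42.3 CPM (counts scaled to a common library size) in WT-RA lungs, 32.2 to 36.4 in WT-O2, 22.6 to 24.8 in KO-RA and 11.7 to 16.3 in KO-O2, so the knockout lungs sat below the wild-type lungs. In the retina Gsdmd was near the limit of counting, at 0.419 to 5.70 CPM in wild type and 0.636 to 2.95 in knockout, and the library labelled WT-RA mouse 2 held 11 counts, fewer than any knockout retina, so Gsdmd did not check the retinal genotype labels. Lens genes held over 1% of counts in 3 room air retinas, with 1.79% in the library labelled WT-RA mouse 2, 5.37% in WT-RA mouse 3 and 2.81% in KO-RA mouse 3. In the other 9 retinas they held at most 0.0259%. The neural retina markers summed to 45500 to 59500 CPM over the retinas, and the lung epithelial markers to 20100 to 35600 CPM over the lungs. Y-linked genes summed to over 20 CPM in 0 WT-RA lungs, 1 WT-O2 lung, 2 KO-RA lungs and all 3 KO-O2 lungs. They did so in all 3 room air retinas and 1 hyperoxia retina of either genotype.

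In the lung the elastic fiber genes were among the abundant transcripts. They held 1.21% to 2.84% of all counts, and Eln alone held 0.552% to 1.46%. Per kilobase of the longest coding transcript, Mfap4 was the highest in WT-RA lungs at 5757 ± 614 CPM per kb (SD, n = 3), followed by Eln at 2954 ± 821 CPM per kb. Loxl1 at 128 ± 34.6 and Ltbp4 at 123 ± 9.16 CPM per kb did not differ beyond their spread. Fbln5 followed at 63.7 ± 14.5 CPM per kb. Lox at 39.6 ± 8.18, Fbn1 at 33.3 ± 3.72, Emilin1 at 32.6 ± 7.78 and Loxl2 at 31.9 ± 11.6 CPM per kb could not be ordered. Fbn2, the fibrillin best known from fetal tissue, was the lowest at 1.03 ± 0.537 CPM per kb.

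**Figure D1:**
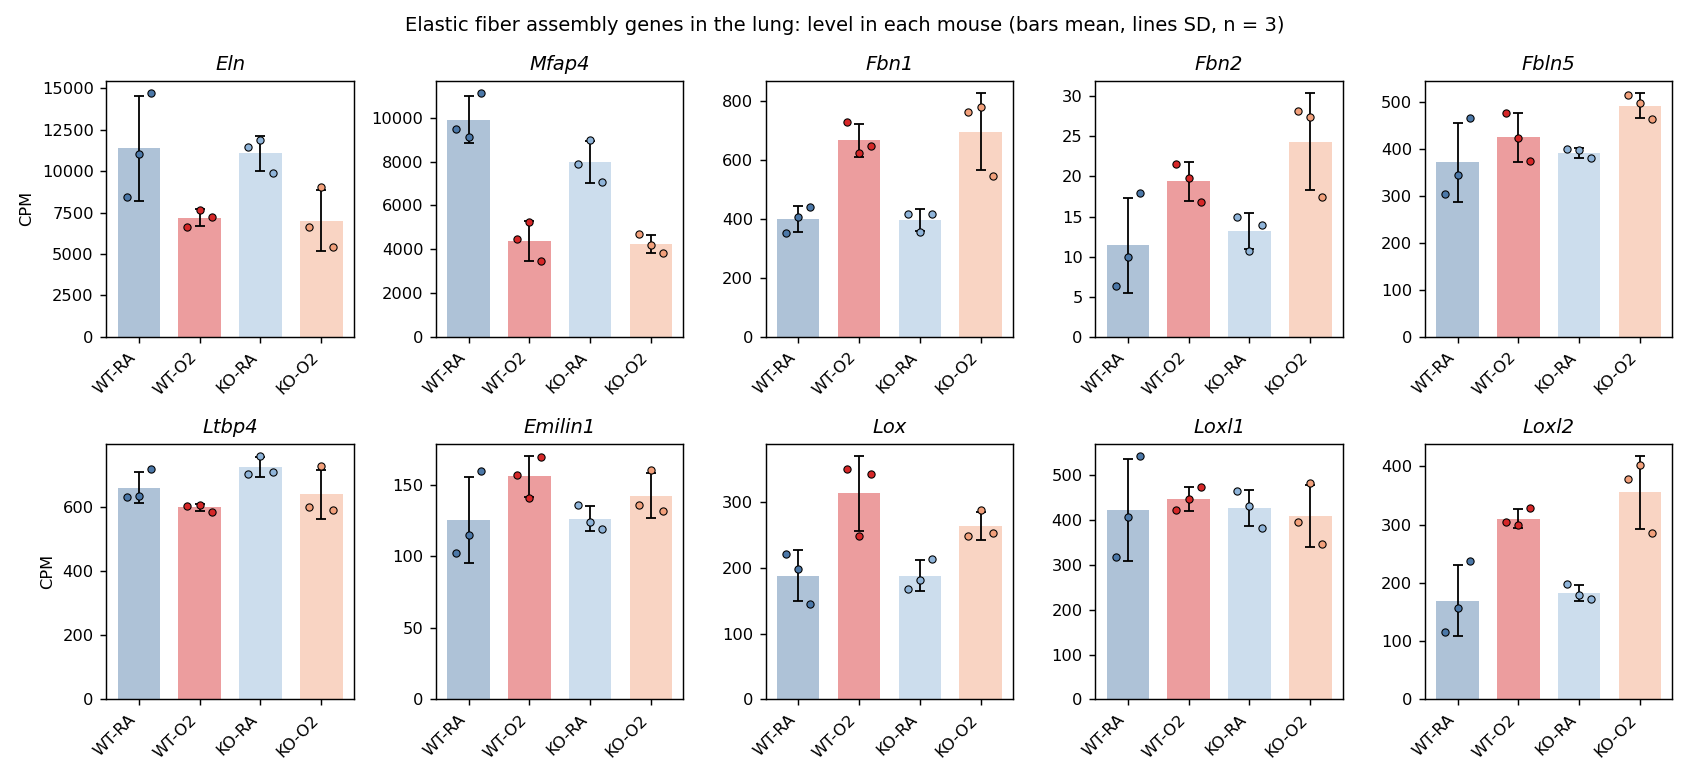
Level of each elastic fiber gene in the lung, in CPM after TMM scaling on an axis that starts at 0, for WT-RA, WT-O2, KO-RA and KO-O2. Points are mice, bars are means and lines are SD (n = 3); Eln and Mfap4 lie lower in both hyperoxia groups, and Fbn1, Lox and Loxl2 higher, and the genotypes overlap under hyperoxia for every gene.

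Hyperoxia moved the elastic fiber genes of the lung in opposite directions. In WT lungs the transcripts of Eln and the abundant Mfap4 fell, while those of Fbn1, Lox and Loxl2 rose. The fitted levels of Fbn2 and Emilin1 were also higher, but their WT groups overlapped and their calls were lost under several alternatives. At an adjusted p under 0.1 (edgeR quasi-likelihood test, Benjamini-Hochberg over 16819 genes), 5 of 10 were higher and 2 were lower in WT-O2 than in WT-RA, against 24.5% and 24.7% of all genes tested. With a fold of at least 2 as well, 1 of 10 was called, Mfap4, against 11.6% of all genes. In knockout lungs 5 of 10 were higher and 2 lower at an adjusted p under 0.1, against 23.3% and 23.4% of all genes, and 0 of 10 reached a fold of 2, against 10.6%. By DESeq2 the knockout count was also 0, and 7 of 10 had an unadjusted p under 0.05 by edgeR, against 47.4% of all genes. These shares are counts over a tissue in which 49.2% of genes in WT and 46.7% in knockout moved, and nothing particular to the elastic fiber genes is read from them.

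Eln was measured at 8418, 11010 and 14710 CPM in the 3 WT-RA lungs and at 6643, 7668 and 7242 CPM in the WT-O2 lungs. The groups did not overlap, as for 49.8% of all genes and 6 of the 10. The fitted level in WT-O2 was 63.1% of that in WT-RA (log2 fold change -0.66, SE 0.20, edgeR adjusted p = 0.017). In the knockout, Eln was at 11490, 11870 and 9894 CPM in room air and at 6619, 9033 and 5406 CPM in hyperoxia. Here too every hyperoxia lung was below every room air lung (the groups of 7 of the 10 and of 52.4% of all genes did not overlap), with a fitted level of 63.3% (log2 fold change -0.66, SE 0.20, edgeR adjusted p = 0.0185). The decrease passed in all 18 alternatives in each genotype, with log2 fold changes from -0.84 to -0.43 in WT and from -0.87 to -0.51 in the knockout. The smallest WT decrease, with an adjusted p of 0.0684 by edgeR, came without WT-RA mouse 3, the lung with the most Eln.

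Mfap4, a fibrinogen-domain glycoprotein of the microfibril surface, fell the most of the 10 genes in fitted log2 terms. It was measured at 9480, 9143 and 11120 CPM in WT-RA and at 4462, 5228 and 3438 CPM in WT-O2, a 2.27-fold decrease (log2 fold change -1.18, SE 0.15, edgeR adjusted p = 2.16e-05). In KO-RA lungs it was at 7875, 9001 and 7058 CPM and in KO-O2 lungs at 4670, 4182 and 3828 CPM, a 1.89-fold decrease (log2 fold change -0.92, SE 0.15, edgeR adjusted p = 0.000214). The lowest room air lung was above the highest hyperoxia lung in both genotypes. The decrease passed in every one of the 18 alternatives in each genotype.

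The fibrillin genes moved the other way. Fbn1, the main fibrillin of postnatal microfibrils, was at 352, 405 and 440 CPM in WT-RA and at 729, 623 and 647 CPM in WT-O2. Its groups were clearly apart, with a 1.67-fold increase (95% interval 1.37 to 2.03, edgeR adjusted p = 0.00045). In the knockout it was at 418, 355 and 416 CPM in room air and at 762, 780 and 545 CPM in hyperoxia, a 1.76-fold increase (95% interval 1.44 to 2.13, edgeR adjusted p = 0.000229).

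Fbn2 was a low gene with a wide spread, at 6.32, 9.99 and 17.9 CPM in WT-RA and 21.6, 19.8 and 16.8 CPM in WT-O2. Its WT groups overlapped through WT-RA mouse 3, and the 1.70-fold increase had an edgeR adjusted p of 0.0842. In the knockout it was at 14.97, 10.7 and 13.97 CPM in room air and 28.2, 27.4 and 17.4 CPM in hyperoxia, without overlap, a 1.84-fold increase with an edgeR adjusted p of 0.052. The call was lost under 8 of 18 alternatives in WT and 5 of 18 in the knockout. In WT these were no filter on low counts, a fit of the 2 groups alone, and leaving out WT-RA mouse 1 or 2, WT-O2 mouse 1 or 2, KO-O2 mouse 2 or KO-RA mouse 3, with adjusted p from 0.102 to 0.201. In the knockout they were no filter and leaving out KO-O2 mouse 1 or 2 or KO-RA mouse 2 or 3, with adjusted p from 0.102 to 0.155.

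The genes that guide deposition had folds under 1.3 in either direction. Fbln5, the integrin-binding fibulin, was at 304, 344 and 466 CPM in WT-RA and 477, 422 and 374 CPM in WT-O2, which overlapped (fold 1.14, 95% interval 0.940 to 1.39, edgeR adjusted p = 0.26). Without WT-RA mouse 3 the WT log2 difference was 0.39 and passed (edgeR adjusted p = 0.00646). In the knockout the groups did not overlap, at 400, 397 and 380 CPM against 515, 497 and 463 CPM, a 1.25-fold increase (edgeR adjusted p = 0.0645), and this call was lost when KO-O2 mouse 1 or 2 or any KO-RA mouse was left out, with adjusted p from 0.115 to 0.173. Ltbp4, which links latent TGF-beta and elastin to microfibrils, did not pass in either genotype. It was at 632, 635 and 719 CPM in WT-RA and 605, 607 and 586 CPM in WT-O2. These groups did not overlap, with WT-O2 lower, at a fold of 0.906 (95% interval 0.790 to 1.04, edgeR adjusted p = 0.238), and its knockout fold was 0.883 (95% interval 0.770 to 1.01). The knockout difference passed with library totals in place of TMM (edgeR adjusted p = 0.046) and without KO-O2 mouse 2 (0.0382). Emilin1, an elastin-associated glycoprotein of the fiber's interface, was at 102, 115 and 160 CPM in WT-RA and 157, 141 and 170 CPM in WT-O2, a 1.24-fold increase at an edgeR adjusted p of 0.090. That call was lost under 10 of 18 alternatives: no filter, a fit of the 2 groups alone, the Y-linked covariate, and leaving out WT-RA mouse 1 or 2, WT-O2 mouse 1 or 3, KO-O2 mouse 1 or KO-RA mouse 2 or 3, with adjusted p from 0.105 to 0.311. In the knockout Emilin1 had a fold of 1.13 (95% interval 0.917 to 1.39, edgeR adjusted p = 0.347).

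Among the cross-linking enzymes, Lox and Loxl2 rose and Loxl1 did not pass. Lox, the founding lysyl oxidase, was at 221, 198 and 145 CPM in WT-RA and 349, 248 and 342 CPM in WT-O2, with no overlap and a 1.67-fold increase (edgeR adjusted p = 0.00251). In the knockout it was at 168, 181 and 214 CPM in room air and 249, 288 and 252 CPM in hyperoxia, a 1.403-fold increase without overlap (edgeR adjusted p = 0.0276). Loxl2, which acts on basement membrane collagen as well as elastin, was at 116, 157 and 237 CPM in WT-RA and 304, 299 and 329 CPM in WT-O2, without overlap, a 1.83-fold increase (edgeR adjusted p = 0.00681). Its knockout values were 198, 179 and 172 CPM in room air and 379, 403 and 285 CPM in hyperoxia, also apart, a 1.95-fold increase (edgeR adjusted p = 0.00414). Loxl1, the family member tied most closely to elastin renewal, overlapped between room air and hyperoxia in both genotypes. Its fold was 1.06 in WT (95% interval 0.826 to 1.36) and 0.959 in the knockout (95% interval 0.747 to 1.23). Without WT-RA mouse 3 the WT log2 difference of Loxl1 was 0.31 and passed (edgeR adjusted p = 0.0873). Lox, Loxl2 and Fbn1 passed in all 18 alternatives in each genotype, the Y-linked covariate included. Without WT-RA mouse 3, 3 members in place of 1 reached a fold of 2 in WT, and without KO-O2 mouse 3, 2 in place of 0 did in the knockout.

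**Figure D2:**
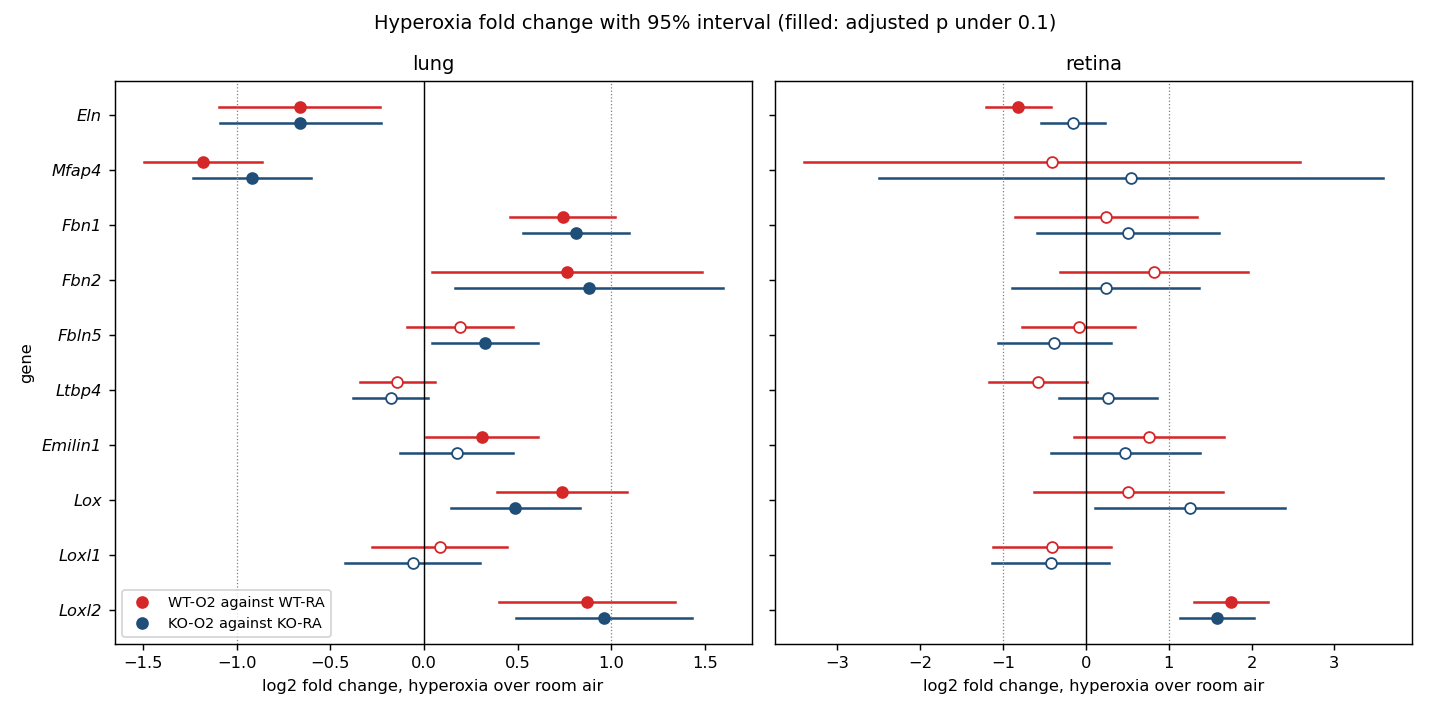
Fitted log2 fold change of hyperoxia over room air for each gene, with its 95% interval, in the lung and the retina (x axes differ); red is WT, blue is knockout, filled points have an adjusted p under 0.1 and dotted lines mark a fold of 2 either way. In the lung the 2 genotypes lie close to each other, and in the retina Loxl2 stands at 1.75 in WT and 1.59 in the knockout.

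The make-up of the elastic fiber transcripts was therefore different in hyperoxic lungs. Eln and Mfap4 together held 87.6% to 90.4% of the counts of the 10 genes in the 6 room air lungs and 77.8% to 82.1% in the 6 hyperoxia lungs. There were 23.8 to 33.4 Eln counts per Fbn1 count in room air and 8.68 to 12.3 in hyperoxia. There were 36.5 to 44.9 Loxl2 counts per 100 Loxl1 counts in room air lungs, and 66.7 to 72.1 in WT-O2 and 82.1 to 95.5 in KO-O2 lungs. These ratios are taken within a library and do not overlap between room air and hyperoxia. They show unequal change, not which transcript moved.

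**Figure D3:**
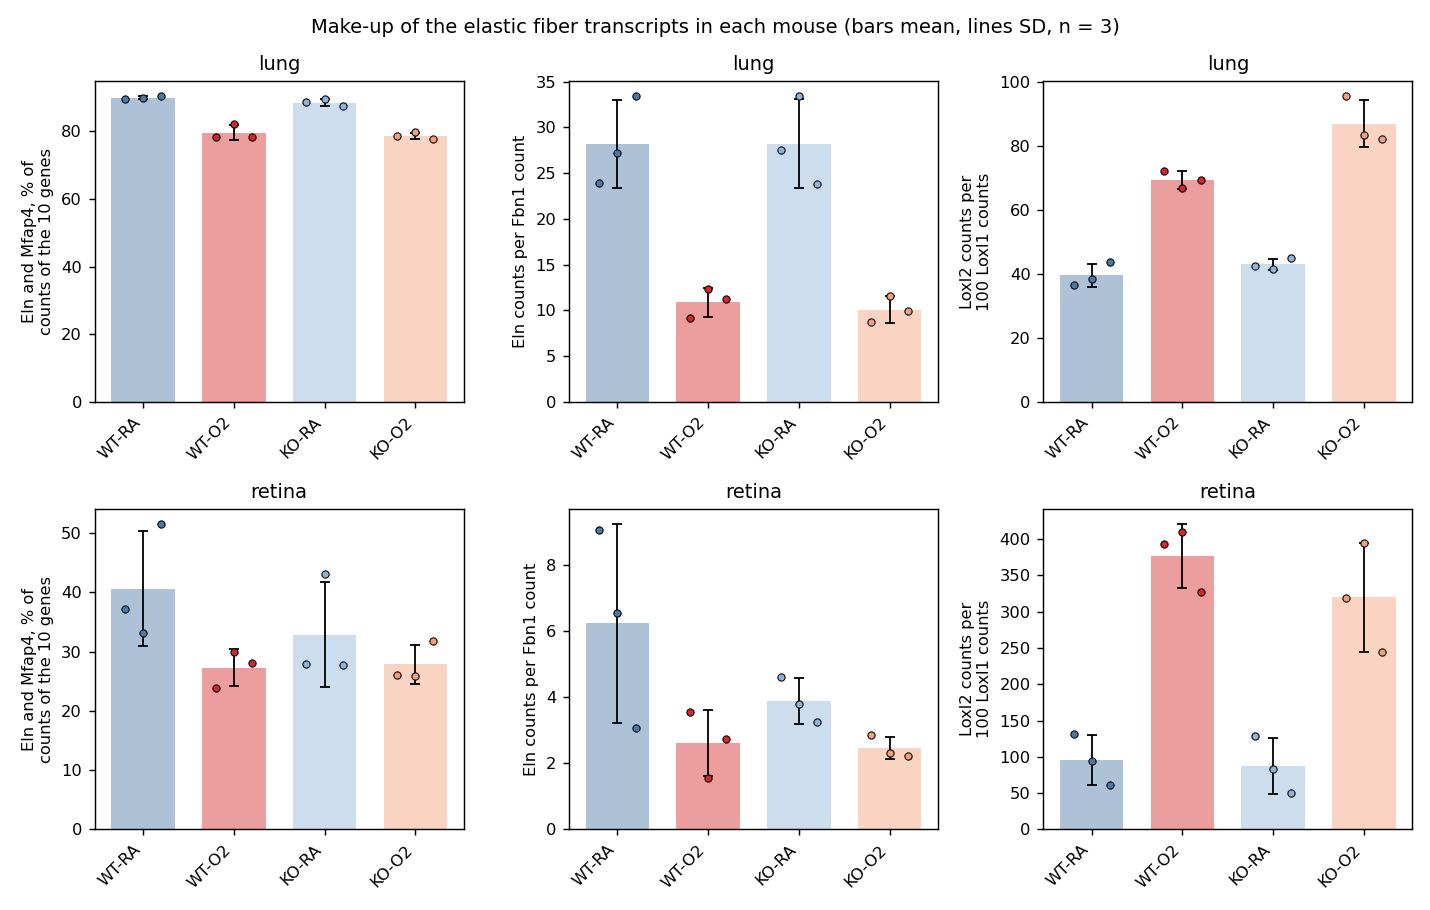
Make-up of the elastic fiber transcripts in each mouse of the lung (top) and retina (bottom): share of Eln and Mfap4 in the counts of the 10 genes (%), Eln counts per Fbn1 count, and Loxl2 counts per 100 Loxl1 counts. Points are mice, bars are means and lines are SD (n = 3); in the lung the room air and hyperoxia mice separate in all 3 panels, and in the retina they separate for Loxl2 over Loxl1.

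Marker sums of several cell types also differed between room air and hyperoxia, and whole-tissue RNA does not tell fewer cells of a type from less RNA per cell. The 12 smooth muscle and myofibroblast markers summed to 927 to 1840 CPM in WT-RA, 1890 to 2090 in WT-O2, 1150 to 1310 in KO-RA and 1230 to 1950 in KO-O2 lungs, with 7 of 12 higher and 0 lower in WT and 5 of 12 higher and 0 lower in the knockout at an adjusted p under 0.1 (all genes: 24.5% higher and 24.7% lower in WT, 23.3% and 23.4% in the knockout). The 12 fibroblast markers were mixed, with 4 higher and 3 lower in WT and 4 higher and 4 lower in the knockout. Their sums overlapped, at 6560 to 8740, 8450 to 9310, 7790 to 8950 and 8060 to 8800 CPM in the same order. The endothelial, lung epithelial, macrophage, pericyte and airway cartilage sums were lower in every hyperoxia lung than in every room air lung of the same genotype. Single markers of these lists were not counted. The airway cartilage sum was low, at 14.9 to 76.1 CPM over the lungs. Of its markers Acan, Cnmd, Col9a1, Matn1, Matn3 and Snorc never passed 1 CPM in any lung. Endothelial markers summed to 4400 to 4770 CPM in WT-RA, 3320 to 3640 in WT-O2, 4090 to 4200 in KO-RA and 3090 to 3710 in KO-O2. Lung epithelial markers summed to 31000 to 35400, 23000 to 26400, 31000 to 35600 and 20100 to 24800 CPM, and macrophage markers to 2180 to 3130, 1920 to 2070, 2360 to 2540 and 1610 to 1810 CPM, in the same order. Pericyte markers summed to 712 to 839, 545 to 639, 726 to 772 and 596 to 652 CPM. The part of these cell types in the changes of the elastic fiber genes was not tested. The erythroid markers summed to 15700 to 18100 CPM in WT-RA, 2910 to 4130 in WT-O2, 13000 to 27300 in KO-RA and 6090 to 28600 in KO-O2. The WT-O2 lungs were thus the lowest, and the knockout groups overlapped. Liver markers summed to 172 CPM in KO-O2 mouse 1 against at most 13.3 in the other lungs.

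Variation within a group was shared by most of the 10 genes. WT-RA mouse 3 was the highest of its group for 9 of 10 genes and the lowest for Lox, and WT-RA mouse 1 was the lowest for 8 of 10. The smooth muscle and myofibroblast sum was 1840 CPM in WT-RA mouse 3 and 927 in mouse 1. In KO-O2 lungs, mouse 3 was the lowest for 9 of 10 genes and held 1230 CPM of the same markers. After removing group means, the log2 level of Eln over the 12 lungs correlated with Loxl1 at r = 0.959, Loxl2 at 0.887, Ltbp4 at 0.841 and Emilin1 at 0.807, and with Lox at -0.481, as a description of libraries that share tissue composition. Lox was the single member with a negative r.

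No elastic fiber gene passed the test between genotypes in the lung. Between KO-O2 and WT-O2, 0 of 10 had an adjusted p under 0.1, against 0.0416% of all genes, 0 of 10 had an unadjusted p under 0.05 by edgeR, against 6.21%, and DESeq2 also gave 0. The groups of every one of the 10 overlapped, where 12.2% of all genes did not. The fold of KO-O2 over WT-O2 was 0.977 for Eln (95% interval 0.726 to 1.32), 0.966 for Mfap4 (0.777 to 1.20), 1.04 for Fbn1 (0.860 to 1.27), 0.840 for Lox (0.662 to 1.07) and 1.15 for Loxl2 (0.830 to 1.58). A 2-fold difference lay outside these 5 intervals, and smaller differences could not be told from none. Fbn2 had the widest interval, 0.771 to 2.04 around 1.26. Between KO-RA and WT-RA 0 of 10 passed by edgeR or DESeq2, against 0.488% of all genes, and 1 of 10 had an unadjusted p under 0.05, against 10.5%. That gene was Mfap4, at 7875, 9001 and 7058 CPM in KO-RA against 9480, 9143 and 11120 CPM in WT-RA. These groups did not overlap, as for 15.2% of all genes, and the fold was 0.805 (95% interval 0.648 to 1.00, edgeR adjusted p = 0.477).

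The difference between the 2 hyperoxia responses was tested directly. In the lung 0 of 10 interaction terms had an adjusted p under 0.1 (0.00595% of all genes did) or an unadjusted p under 0.05 (6.72% did), and DESeq2 gave 0. The log2 difference of the responses, knockout minus WT, was 0.00 for Eln (95% interval -0.60 to 0.61), 0.26 for Mfap4 (-0.18 to 0.71), 0.07 for Fbn1 (-0.32 to 0.47), -0.25 for Lox (-0.73 to 0.24) and 0.09 for Loxl2 (-0.57 to 0.75). All 3 KO-O2 lungs carried Y-linked transcripts and 2 of the 3 WT-O2 lungs did not, so sex and genotype were partly aligned. With Y-linked expression as a covariate 0 of 10 passed in each of these 3 comparisons.

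In the retina the same 10 genes were scarce, at 0.00518% to 0.0108% of all counts. Levels in the 2 tissues were scaled separately and are set side by side without a test. Mfap4 at 7.94 ± 11.5 and Eln at 5.54 ± 1.05 CPM per kb (SD, n = 3) had the highest means in WT-RA, and the SD of Mfap4 was larger than its mean. Ltbp4 at 2.91 ± 0.347, Loxl1 at 2.50 ± 1.22 and Loxl2 at 1.32 ± 0.138 CPM per kb followed, and Lox at 0.130 ± 0.0913 CPM per kb was the lowest. Lox held 8 to 48 counts per retina, and how much of its spread was counting error was not tested.

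**Figure D4:**
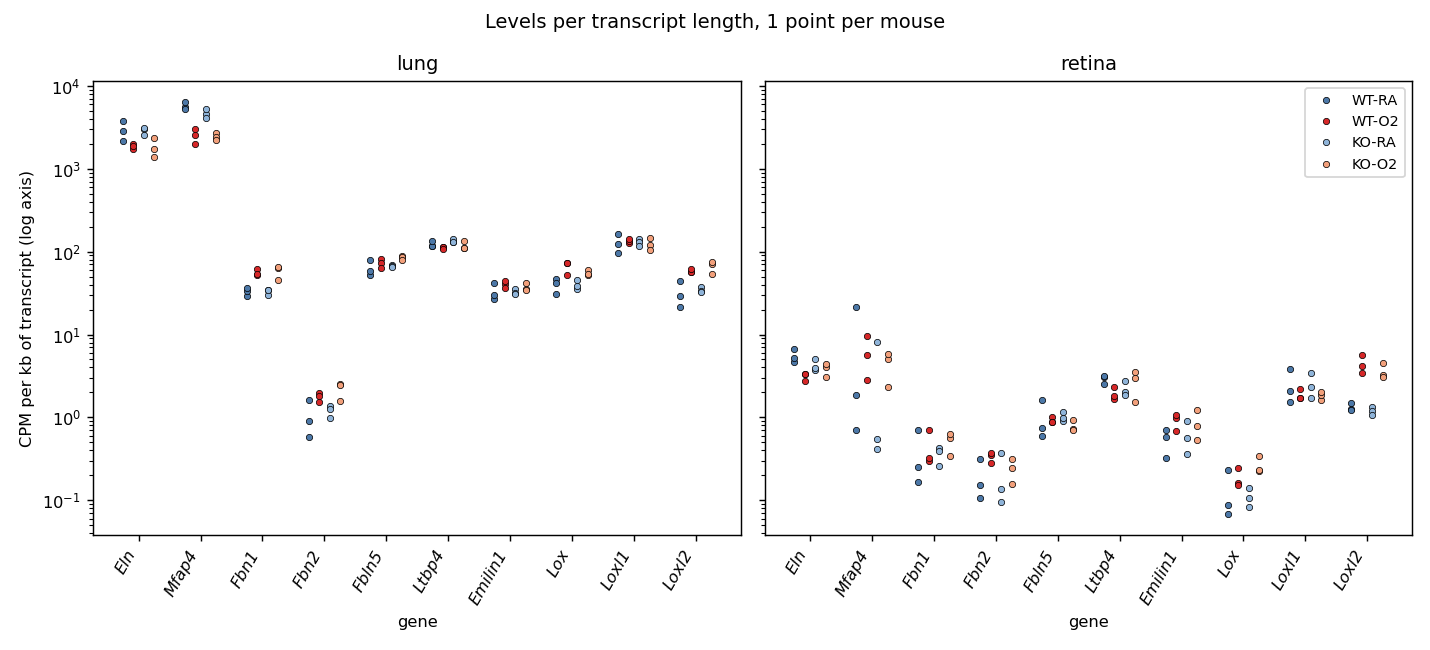
Levels of the 10 genes in CPM per kb of the longest coding transcript, on a log axis, with 1 point per mouse and colours for the 4 groups, in the lung and the retina. Mfap4 and Eln lead in the lung by a wide margin, at 5757 and 2954 CPM per kb in WT-RA, and in the retina Mfap4 spreads 30-fold within WT-RA and 19.3-fold within KO-RA.

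Loxl2 was the elastic fiber gene that rose in the retina after hyperoxia. It was at 6.68, 6.48 and 7.84 CPM in WT-RA and at 22.2, 30.03 and 18.5 CPM in WT-O2, with a wide gap between the groups. The increase was 3.37-fold (log2 fold change 1.75, SE 0.20, edgeR adjusted p = 0.00184). In the knockout it was at 7.17, 6.32 and 5.68 CPM in room air and at 17.3, 24.2 and 16.2 CPM in hyperoxia, a 3.00-fold increase (log2 fold change 1.59, SE 0.20, edgeR adjusted p = 0.00394). Of the 10 genes 1 was thus called in WT, against 2.04% of all 19173 genes tested, and 1 in the knockout, against 2.19%. Without the library labelled WT-RA mouse 2, whose Gsdmd was low, the WT log2 fold change of Loxl2 was 1.70 (edgeR adjusted p = 0.0151). Both calls passed in all 19 alternatives. Without the 3 retinas rich in lens transcripts the log2 fold change was 1.81 in WT (edgeR adjusted p = 0.0525) and 1.51 in the knockout (0.0398). With these retinas left out WT-RA has a single library, which is assumed to vary like the other groups.

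Loxl2 counts per 100 Loxl1 counts were 50.5 to 131 in room air retinas and 245 to 410 in hyperoxia retinas, a separation in the same direction as in the lung. Loxl1 itself did not pass, with folds of 0.754 in WT (95% interval 0.461 to 1.24) and 0.744 in the knockout (0.455 to 1.22). Lox was at 0.507, 0.673 and 0.397 CPM in KO-RA and at 1.08, 1.64 and 1.09 CPM in KO-O2. These groups did not overlap, as for 26.2% of all genes and 2 of the 10, but the 2.395-fold difference had an unadjusted p of 0.0339 and an edgeR adjusted p of 0.205. In WT the Lox groups overlapped, with a fold of 1.43 (95% interval 0.647 to 3.14).

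Eln was lower in WT-O2 than in WT-RA retinas, at 12.7, 13.0 and 10.6 CPM against 18.2, 20.01 and 25.9 CPM. The groups did not overlap, as for 24% of all genes and 3 of the 10, and the fitted level was 56.8% (log2 fold change -0.82, SE 0.18, edgeR adjusted p = 0.0377). With Loxl2 this made 2 of 10 genes at an adjusted p under 0.1 in WT, 1 higher against 3.11% of all genes and 1 lower against 2.05% (5.16% in all). Without the library labelled WT-RA mouse 2 the log2 fold change of Eln was -0.86 (edgeR adjusted p = 0.0904). The Eln call was lost with Y-linked expression as a covariate (log2 fold change -0.75, adjusted p = 0.184 by edgeR), without WT-O2 mouse 1 (-0.86, 0.101) or mouse 3 (-0.72, 0.148), and without the 3 retinas rich in lens transcripts (-0.59, 0.235). In the knockout Eln was at 14.4, 19.4 and 15.4 CPM in room air and at 11.8, 15.6 and 16.8 CPM in hyperoxia, which overlapped (fold 0.898, 95% interval 0.687 to 1.18), and 1 of 10 genes passed, against 7.82% of all genes (4.38% higher and 3.44% lower). The difference between the 2 responses was 0.66 on the log2 scale (95% interval 0.11 to 1.21, unadjusted p = 0.0223, edgeR adjusted p = 0.373), so the responses of Eln were not shown to differ between genotypes.

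**Figure D5:**
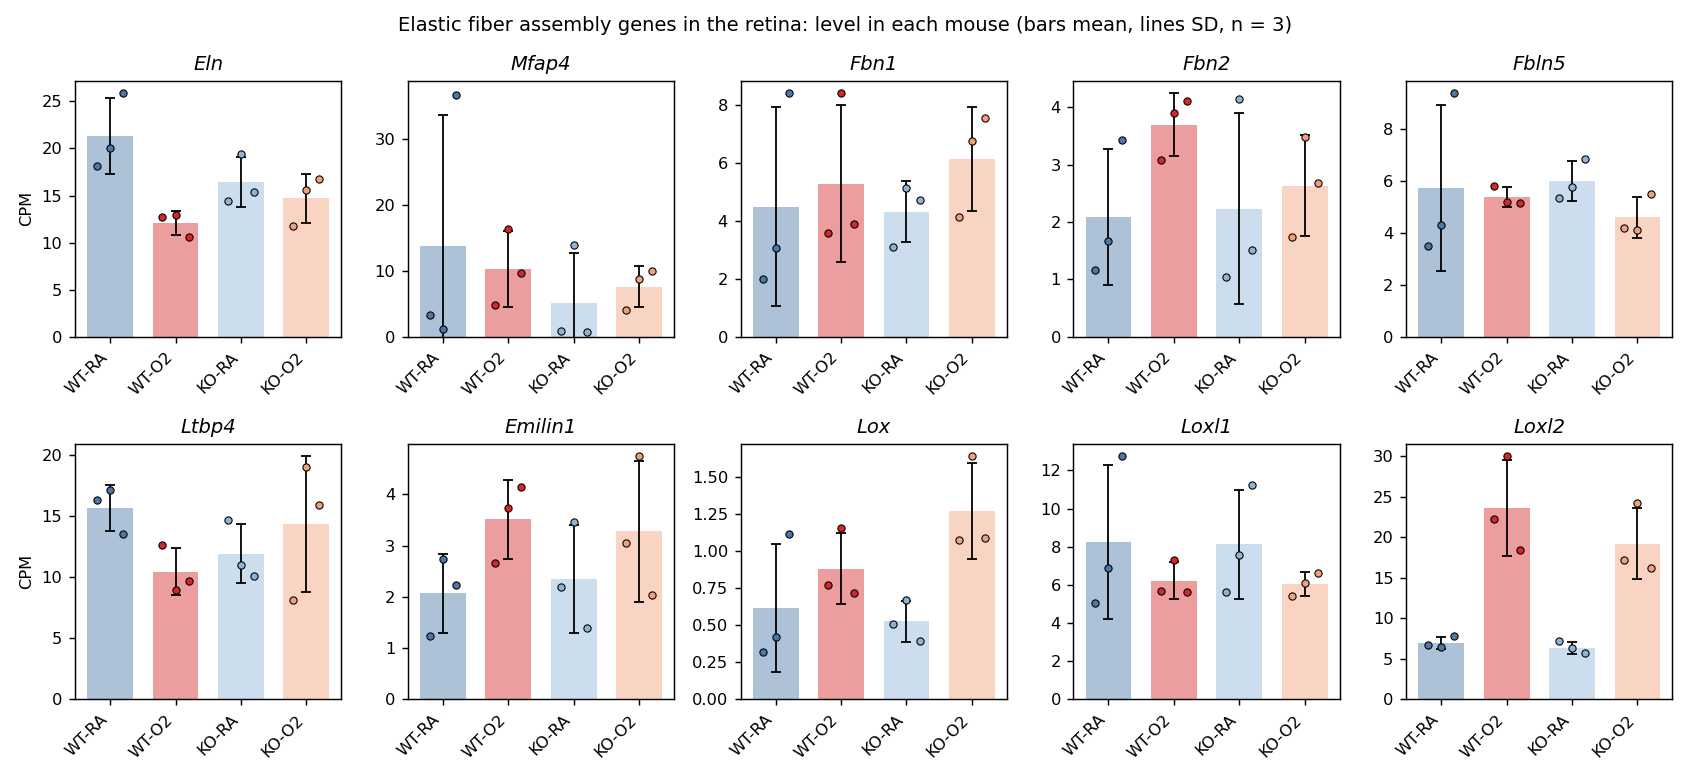
Level of each elastic fiber gene in the retina, in CPM after TMM scaling on an axis that starts at 0, for WT-RA, WT-O2, KO-RA and KO-O2. Points are mice, bars are means and lines are SD (n = 3); Loxl2 separates room air from hyperoxia in both genotypes, and Mfap4 in room air ranges from 0.715 to 36.6 CPM.

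The microfibril genes of the retina varied widely between mice and none passed. Mfap4 was at 3.24, 1.22 and 36.6 CPM in WT-RA and at 0.946, 13.8 and 0.715 CPM in KO-RA, so that the highest mouse was 30 and 19.3 times the lowest. The high WT-RA library was the one with 5.37% lens transcripts, while the high KO-RA library held 0.000591% and the KO-RA library with 2.81% was the lowest of its group. Both high libraries had the highest fibroblast marker sum of their group, 75.6 CPM in WT-RA and 81.7 in KO-RA. Skeletal muscle markers summed to 66.2 CPM in the high KO-RA library, 21 in the high WT-RA library and at most 32.5 in the other retinas. The source of the Mfap4 spread was not tested. The fold of hyperoxia was 0.754 in WT (95% interval 0.0948 to 6.01) and 1.46 in the knockout (0.177 to 12.1). Fbn1, Fbn2, Fbln5 and Emilin1 did not pass in either genotype. Their WT folds were 1.18, 1.77, 0.940 and 1.70, and without the 3 lens-rich retinas the WT log2 differences were 1.397, 1.67, 0.62 and 1.497, with edgeR adjusted p from 0.203 to 0.286. WT-RA mouse 3 was the highest of its group for 8 of 10 genes.

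Ltbp4 had a fold below 1 in WT and above 1 in the knockout in the retina, and neither passed. It was at 16.3, 17.2 and 13.6 CPM in WT-RA and 12.7, 9.01 and 9.73 CPM in WT-O2, groups that did not overlap, with a fold of 0.667 (95% interval 0.442 to 1.01, edgeR adjusted p = 0.292). In the knockout it was at 14.7, 11.0 and 10.1 CPM in room air and 8.19, 19.0 and 15.9 CPM in hyperoxia (fold 1.20, 95% interval 0.800 to 1.81). The difference between the responses was 0.85 on the log2 scale (95% interval 0.02 to 1.69, unadjusted p = 0.0462, edgeR adjusted p = 0.46), and without KO-O2 mouse 1 its edgeR adjusted p was 0.0989. Of the 10 interaction terms 0 passed with all libraries by edgeR or DESeq2, against 0.00522% of all genes, and 2 of 10 (Eln and Ltbp4) had an unadjusted p under 0.05, against 10.6%.

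None of the 10 passed for genotype in the retina, and the groups of every one overlapped (19.9% of all genes did not under hyperoxia and 17.7% in room air). Between KO-O2 and WT-O2 0 of 10 had an adjusted p under 0.1, against 1.27% of all genes, 0 of 10 had an unadjusted p under 0.05 by edgeR, against 12.6%, and DESeq2 gave 0. The fold of KO-O2 over WT-O2 was 0.816 for Loxl2 (95% interval 0.605 to 1.10) and 1.22 for Eln (0.928 to 1.59). Between KO-RA and WT-RA the counts were also 0, against 0.00522% of all genes, with 0 of 10 at an unadjusted p under 0.05, against 12.7%, and 0 by DESeq2. Eln had a fold of 0.768 there (95% interval 0.588 to 1.00, edgeR adjusted p = 0.402).

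Marker sums of vascular and stromal cells were higher in every hyperoxia retina than in every room air retina of the same genotype. Single pericyte and endothelial markers were not counted. At an adjusted p under 0.1, 3 of 11 smooth muscle and myofibroblast markers tested were higher and 0 lower in WT and 2 higher and 1 lower in the knockout, and 2 of 9 fibroblast markers were higher and 0 lower in each genotype (all genes: 3.11% higher and 2.05% lower in WT, 4.38% and 3.44% in the knockout). The 6 pericyte markers summed to 68.1 to 74.9 CPM in WT-RA, 181 to 240 in WT-O2, 90.3 to 101 in KO-RA and 123 to 195 in KO-O2. The 8 endothelial markers summed to 124 to 171 CPM over the room air and 225 to 304 over the hyperoxia retinas, and the 12 fibroblast markers, of which Col14a1, Dpt and Tcf21 never passed 1 CPM, to 38 to 81.7 and 86.1 to 201. The smooth muscle and myofibroblast markers, without Cnn1 and Hhip above 1 CPM, summed to 30.2 to 59.8 CPM in WT-RA, 68.4 to 129 in WT-O2, 31.8 to 46.5 in KO-RA and 54 to 74.5 in KO-O2. The part of these cells in the Loxl2 increase was not tested. Pigment epithelium markers summed to 687 CPM in KO-RA mouse 3 against 38.1 to 191 in the other retinas.

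Other genes of elastic fiber biology were read from 3 lists. Of the 24 partners (other fibulins, microfibril proteins, LTBPs, ADAMTS-like proteins and enzymes of assembly) 23 were tested in the lung, with 12 higher and 5 lower in WT and 10 higher and 8 lower in the knockout at an adjusted p under 0.1. Over all genes 24.5% were higher and 24.7% lower in WT, and 23.3% and 23.4% in the knockout. The partners' median log2 fold change was 0.43 in WT and 0.28 in the knockout, against -0.01 for all genes in each; for the 10 members it was 0.25 in both. Loxl4, a further lysyl oxidase, rose from 1.95 ± 0.204 to 9.64 ± 0.981 CPM in WT lungs (SD, n = 3), a 4.93-fold increase, and 4.49-fold in the knockout. Versican (Vcan), a proteoglycan of provisional matrix, rose 6.82-fold in WT and 5.99-fold in the knockout. Mfap5, a microfibril glycoprotein, rose 1.75-fold in WT and 1.4-fold in the knockout. Adamts17 and Adamts10, which bind fibrillin, fell, with folds of 0.476 and 0.667 in WT and of 0.529 and 0.543 in the knockout. The edgeR adjusted p of these genes ran from 4.29e-07 to 0.0018. The other partners that fell in WT, chosen after their values were seen, were Mfap2 (fold 0.38), Fbln2 (0.581) and Tll1 (0.378), and all of them fell in the knockout as well.

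Of 12 elastin-degrading enzymes 9 were tested in the lung, with 2 higher in WT and 5 higher in the knockout and 0 lower, beside 24.5% and 23.3% of all genes higher. Mmp2, gelatinase A, rose from 471 ± 103.9 to 1092 ± 56.8 CPM in WT (2.32-fold) and 2.36-fold in the knockout. Mmp12, the macrophage elastase, rose 1.69-fold in WT and 3.07-fold in the knockout, from 5.79 ± 0.286 to 17.8 ± 0.730 CPM. The cathepsins Ctss and Ctsk rose 1.41-fold and 1.42-fold in the knockout, and Mmp14, a membrane metalloproteinase named after its value was seen, rose 1.32-fold (edgeR adjusted p = 0.0489). In WT Mmp14 had a fold of 1.23 (edgeR adjusted p = 0.135). Between the room air groups 2 of the 9 enzymes passed, both lower in KO-RA and named after their values were seen: Mmp12 at a fold of 0.415 (edgeR adjusted p = 0.0182) and Ctss at 0.645 (0.0369). The neutrophil elastase gene Elane, Ctsg, Mmp7 and Cela1 never passed 1 CPM in any lung.

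Of 8 elastase inhibitors 4 were higher and 1 lower in WT lungs and 5 were higher and 2 lower in the knockout, beside the same shares of all genes. Timp1, an inhibitor of metalloproteinases, rose from 3.36 ± 1.06 to 52.4 ± 10.7 CPM in WT, a 15.6-fold increase, and from 3.75 ± 0.237 to 40.7 ± 1.56 CPM in the knockout, a 10.9-fold increase. Slpi, the secretory leukocyte protease inhibitor, rose 2.56-fold and 3.39-fold. Timp3, which binds to matrix, rose 2.15-fold and 1.94-fold, and Serpine2, a serine protease inhibitor, 2.18-fold and 2.15-fold. A2m, the broad protease trap, fell, with folds of 0.266 in WT and 0.297 in the knockout. In the knockout Timp2 rose 1.19-fold and Cst3, the cathepsin inhibitor cystatin C, fell at a fold of 0.756, both named after their values were seen. For KO-O2 against WT-O2, 0 of the partners, enzymes and inhibitors passed by edgeR, with 2 of each list at an unadjusted p under 0.05. For the interaction 0 passed, with 3 partners, 2 enzymes and 0 inhibitors at an unadjusted p under 0.05.

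In the retina 3 of 23 partners were higher and 0 lower in WT, and 4 were higher and 1 lower in the knockout, beside 3.11% of all genes higher and 2.05% lower in WT and 4.38% and 3.44% in the knockout. Fkbp10, a collagen and tropoelastin chaperone, rose 1.88-fold and 2.04-fold in WT and knockout. Bmp1, the protease that activates lysyl oxidases, rose 1.68-fold and 2.11-fold. Atp7a, the copper transporter that loads them, rose 1.53-fold in WT (edgeR adjusted p = 0.0815). Mfap2, a microfibril glycoprotein, rose from 48.7 ± 15.6 to 110 ± 14.3 CPM in the knockout (2.27-fold). Loxl3 rose 1.76-fold in the knockout (edgeR adjusted p = 0.0802) and had a fold of 1.70 in WT (0.118). The partner that fell in the knockout, named after its value was seen, was Thsd4, a fibrillin-binding ADAMTS-like protein (fold 0.565, edgeR adjusted p = 0.0867). Among the enzymes 2 of 9 were higher in each genotype. Mmp14 rose 1.67-fold in each. Mmp12, a low gene, rose 4.24-fold in WT, from 0.563 ± 0.246 to 2.40 ± 0.684 CPM. Its fold in the knockout was 1.58 (edgeR adjusted p = 0.426). Ctss rose 1.80-fold in the knockout and had a fold of 1.63 in WT (edgeR adjusted p = 0.109). Among the inhibitors 2 of 7 were higher in each genotype, Timp1 by 6.69-fold in WT and 3.53-fold in the knockout and Serpine2 by 1.95-fold and 1.33-fold. For KO-O2 against WT-O2, 0 of the partners, enzymes and inhibitors passed by edgeR, against 1.27% of all genes. For the interaction 0 passed, against 0.00522% of all genes.

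The genes whose log2 level was most like that of Eln over the 12 lungs, among 12186 genes averaging 5 CPM or more, were Nckap5l (Pearson r = 0.959), Rpl17 (0.957), Igfbp2 (0.955), Mxra8 (0.955) and Rps9 (0.954). With group means removed their r was 0.874 to 0.937. Of the other members Mfap4 (0.831) and Ltbp4 (0.808) were the closest to Eln over the lungs and Lox (-0.803) the farthest. In the retina the closest were Grip2 (0.883), Gm49686, Vav3, Camsap3 and Nav3, with r down to 0.862 over 12103 genes. Their r with group means removed was lower, at 0.545 to 0.772. These values describe 12 libraries in 4 groups that share depth and composition.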

How the data were processed

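RNA from whole lungs and retinas was sequenced at 150 bases, paired-end. The authors deposited expected counts (estimated counts per gene, not normalized) made with kallisto and tximport; the study's methods name GRCm39 and the submitters' processing notes name mm10, and further settings are not given in the sources used here. Values within 0.001 of a whole number made up 44.9% of the nonzero lung values and 0.35% of the retinal ones. Counts were rounded. Genes were filtered with filterByExpr, scaled by TMM and tested per tissue by edgeR 4.0.16 (limma 3.58.1, R 4.3.3) in 1 quasi-likelihood model of 12 samples and 4 groups, without covariates, with Benjamini-Hochberg adjustment over 16819 lung or 19173 retina genes. Calls needed an adjusted p under 0.1, a p under 0.05 and a fold of at least 2, and the interaction an adjusted p under 0.1. DESeq2 1.42.0, other scalings and filters, a Y-linked covariate, fits of 2 groups and leaving out each library were tried as alternatives. TMM factors ran from 0.863 to 1.10. Library totals of 24863257 to 29604254 set the counting precision. The model was also run on counts simulated from its own fitted spread, with far fewer changed genes than passed in the lung. The outcome is not reported here, and no result rests on it. Within groups, all 24 pairs of libraries differed beyond sampling noise (chi-square per degree of freedom 14.3 to 257 over genes with at least 20 counts in the pair), so none repeats another. Each library was taken as 1 replicate because the labels name a different mouse for each. The comparison cannot tell whether mice shared a litter. Labels name each mouse; litter and batch are not given. The members and lists were chosen with earlier results of these data known. Named genes, apart from those said to be chosen later, were the members, up to 4 of each list with the smallest p per tissue and hyperoxia comparison, and the 5 genes most like Eln per tissue. Gene positions, lengths and sequences came from GENCODE M21 (GRCm38), used for annotation only. Symbols were found for 35816 of 36109 lung and 35968 of 36595 retina identifiers.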

Additional observations from a re-analysis of the deposited data

How the results depend on the processing

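Over 1830 repeats of the 100 member results (each gene, tissue and comparison, under each alternative), 1793 kept their side of the threshold, 32 lost an adjusted p under 0.1, 5 gained one and 0 reversed a called direction. Only 17 of the 100 results had an adjusted p under 0.1 with the main settings, and all 32 losses fell on repeats of these 17. Without a fold threshold 7 genes in place of 1 were called for hyperoxia in WT lungs, 7 in place of 0 in knockout lungs and 2 in place of 1 in WT retinas, and at a fold of 1.5 there were 6, 5 and 2. The 2 genes with an adjusted p under 0.1 in WT retinas became 1 with Y-linked expression as a covariate and 1 without the 3 retinas rich in lens transcripts, an alternative chosen after seeing the data. With 1 library left out, calls ranged from 1 to 3 in WT lungs (3 without WT-RA mouse 3), 0 to 2 in knockout lungs (2 without KO-O2 mouse 3, 1 without KO-RA mouse 1 or 3) and 0 to 1 for the retinal interaction (1 without KO-O2 mouse 1). Genes with an adjusted p under 0.1 then ranged from 5 to 9 in WT lungs (5 without WT-RA mouse 1, 9 without WT-RA mouse 3), 5 to 7 in knockout lungs and 1 to 2 in WT retinas (1 without WT-O2 mouse 1 or 3). The cause of these shifts was not tested. The p-values rest on a spread between mice that was estimated over all 4 groups of 3 in a tissue. In low retinal genes large estimates had wide intervals. The 2.395-fold difference of Lox in the knockout (95% interval 1.08 to 5.30) did not pass. Without the lens-rich retinas, the WT log2 differences of 1.665 for Fbn2 and 1.443 for Lox rest on 1 WT-RA library. No paired analysis was possible because the labels name single mice and give no replicate numbers shared between groups.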
